A study of Rattus norvegicus with 10 samples.

Results

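The genes described are those that give a neuron its identity as a GABA or a glutamate neuron: *Gad1*, *Gad2*, *Slc32a1*, *Slc17a6* and *Slc17a8*. They were chosen by symbol, and all 5 had a row among the 12828 genes of the table. Of these rows, 12383 were protein-coding, as were all 5 genes. The RNA came from the arcuate nucleus (ARC) of 10 Wistar dams collected immediately upon giving birth. Of these dams, 5 had been fed folic acid (5X-FA) and 5 had been fed 5-methyltetrahydrofolate (5X-MTHF) during pregnancy, both at 5 times the recommended amount. Both diets carried the 5X dose, and the ARC was cut free hand from frozen brain, so neighbouring tissue can be present.

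GABA is the main inhibitory transmitter of the brain, and it is made from glutamate by glutamate decarboxylase. A neuron releases GABA when it carries this enzyme and the vesicular GABA transporter. It releases glutamate when it carries a vesicular glutamate transporter. In the ARC, the neurons that make agouti-related peptide are known to use GABA, and neurons of both kinds are found among those that make pro-opiomelanocortin.

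Each gene had 1 usable value, an average log2 CPM (the reads of a gene relative to all counted reads of a library) taken by the authors over all libraries of both diets. Values per dam, an SD and a difference between the diets were not analysed here, because the columns of single libraries match no sample label. The levels below therefore have no replicate error, carry no test and say nothing of either diet on its own. CPM is a share of the reads and is not divided by transcript length, so a long transcript draws a larger share at the same number of molecules. In a bulk sample, fewer cells of a type and less RNA per cell cannot be told apart.

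Of the 5 genes, 4 lay above the median of the table, which was 4.94, and *Slc17a8* lay below it. The paper describes a minimal filter on reads per gene for its own test of the diets, and whether that filter made this table was not checked. Medians, ranks and shares of genes refer to the genes of the table, not to all genes of the rat. Levels over the whole table ran from -2.07 to 14.56, with a lower quartile of 3.65 and an upper quartile of 6.18. The genes of GABA synthesis were at the upper end of this range, and *Slc17a8* lay below the lower quartile.

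*Gad2*, which encodes the decarboxylase GAD65 found mostly at nerve endings, had an average log2 CPM of 9.67. This is a CPM of about 812, and 100 genes of the table had a higher value. *Gad2* lies on chromosome 17 of Rnor_6.0 from 89171250 to 89238040.

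*Gad1* encodes GAD67, the decarboxylase spread through the cell body that supplies much of the GABA of a neuron. Its average log2 CPM was 8.79, or a CPM of about 444, which placed it at rank 251 from the top. A share of 98.0% of the genes had a lower value, against 99.2% for *Gad2*. *Gad1* lies on chromosome 3 from 56861396 to 56902157.

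*Slc32a1* encodes the vesicular GABA transporter VGAT, which loads GABA and glycine into synaptic vesicles. Its average log2 CPM was 7.40, a CPM of about 169, and 91.0% of the genes had a lower value. The gene is on chromosome 3 from 155103150 to 155107817, 98.2 Mb from *Gad1*. On the scale of reads it stood lowest of the 3 GABA genes, but its gene model is also the shortest, with a span of 4.67 kb.

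*Slc17a6* encodes VGLUT2, the vesicular glutamate transporter that most glutamate neurons of the hypothalamus and thalamus use. Its average log2 CPM was 8.09, a CPM of about 272, with rank 539 from the top. In reads it lay between *Gad1* and *Slc32a1*. The gene is on chromosome 1 from 106998623 to 107038704.

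*Slc17a8* encodes VGLUT3, a transporter of scattered neurons that often release another transmitter besides glutamate. Its average log2 CPM was 2.64, or a CPM of 6.25, and 11.8% of the genes had a lower value. It is on chromosome 7 from 30216104 to 30274984. Its span of 58.9 kb is the second longest of the 5, after that of *Gad2*.

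**Figure D1:**
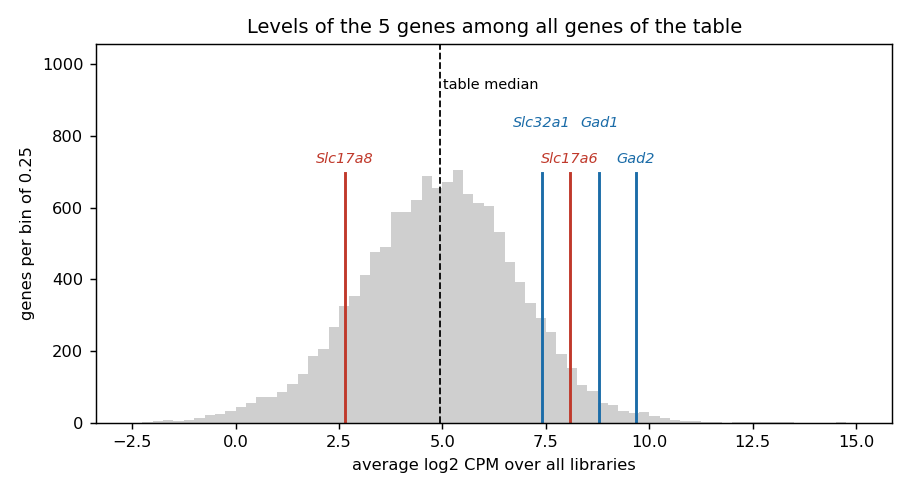
Histogram of the average log2 CPM (x axis) of all 12828 genes of the table, with the number of genes per bin on the y axis; blue lines are the GABA genes, red lines the vesicular glutamate transporters and the dashed line the table median. *Slc32a1*, *Slc17a6*, *Gad1* and *Gad2* stood at 7.40, 8.09, 8.79 and 9.67, right of the median of 4.94, and *Slc17a8* stood at 2.64, left of it.

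The order of these genes depends on length. Transcript lengths were not at hand, and only the genomic span of each gene model, which includes its introns, could be used. Per kb of span, *Slc32a1* was highest, at 5.18 on the log2 scale. *Gad2* followed at 3.60, *Gad1* at 3.45 and *Slc17a6* at 2.76. *Slc17a8* was lowest on this scale also, at -3.24. *Slc32a1* thus moved from the fourth place in reads to the first place per kb of span, whereas *Gad2*, *Gad1*, *Slc17a6* and *Slc17a8* kept their order among themselves. Since introns are spliced out before poly-A selection, neither scale is a measure of molecules.

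None of the 5 gene models overlapped another row of the table, nor another gene model of the RefSeq table on GRCr8. *Gad2* stood farthest from other measured genes, with 0 rows within 500 kb, the nearest being *Gpr158* 520 kb before it. *Slc32a1* had 9 rows within that distance. *Actr5*, 11.2 kb after it, had an average log2 CPM of 3.23, and *Ralgapb*, 120 kb before it, had 7.79. The rows nearest to *Gad1* were *Erich2*, at 2.65, and *Gorasp2*, at 4.70, both below its own level of 8.79. The rows on either side of *Slc17a6* were at -1.61 (AABR07003349.1) and 1.41 (*Fancf*), against 8.09 for *Slc17a6* itself. *Slc17a8* was the reverse case, since *Scyl2*, 16.1 kb after it, had 6.14 and *Ano4*, 514 kb before it, had 5.66, both above its 2.64.

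The DNA just before the start of 3 of these genes is shown because the GABA genes and the glutamate transporters differed there in CpG, the dinucleotide that carries DNA methylation. Each line holds the 100 bases that end at the base before the RefSeq start, on the plus strand of GRCr8, with every CpG in capitals.
Gad2 (chr17:89671618-89671717): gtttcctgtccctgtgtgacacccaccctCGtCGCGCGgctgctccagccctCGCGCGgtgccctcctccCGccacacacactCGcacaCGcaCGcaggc
Slc32a1 (chr3:167687145-167687244): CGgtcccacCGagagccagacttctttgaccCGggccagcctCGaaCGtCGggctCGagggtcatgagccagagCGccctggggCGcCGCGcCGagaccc
Slc17a6 (chr1:110348347-110348446): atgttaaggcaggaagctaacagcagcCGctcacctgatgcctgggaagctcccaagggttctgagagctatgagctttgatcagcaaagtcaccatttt

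These stretches held 11 CpG in *Gad2*, 12 in *Slc32a1* and 1 in *Slc17a6*. Over the RefSeq window of 300 bases, 250 before and 50 after the start, the counts were 42 for *Slc32a1*, 29 for *Gad2* and 26 for *Gad1*. They were 11 for *Slc17a6* and 9 for *Slc17a8*. The median over the 21851 windows of protein-coding genes was 11, so the GABA genes lay above it and neither glutamate transporter did.

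The ratio of observed to expected CpG, which allows for the G and C content, was also higher in each GABA gene than in either glutamate transporter. It was 1.04 for *Slc32a1*, 1.02 for *Gad2* and 0.79 for *Gad1*, and these values exceeded 95.2%, 94.2% and 72.5% of the protein-coding windows. It was 0.61 for *Slc17a6* and 0.46 for *Slc17a8*, which lay above and below the median of 0.52. The G and C content was 73.7%, 63.7% and 67.7% in the 3 GABA genes. In *Slc17a6* and *Slc17a8* it was 49.0% and 51.3%, under the median of 55.0%. For *Gad1* and *Slc17a8*, whose bases are not shown, the RefSeq gene model begins 192 and 1427 bases further upstream. That outer start lies inside the window of *Gad1* and outside that of *Slc17a8*. These values describe the reference sequence, and methylation was not measured in these dams.

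**Figure D2:**
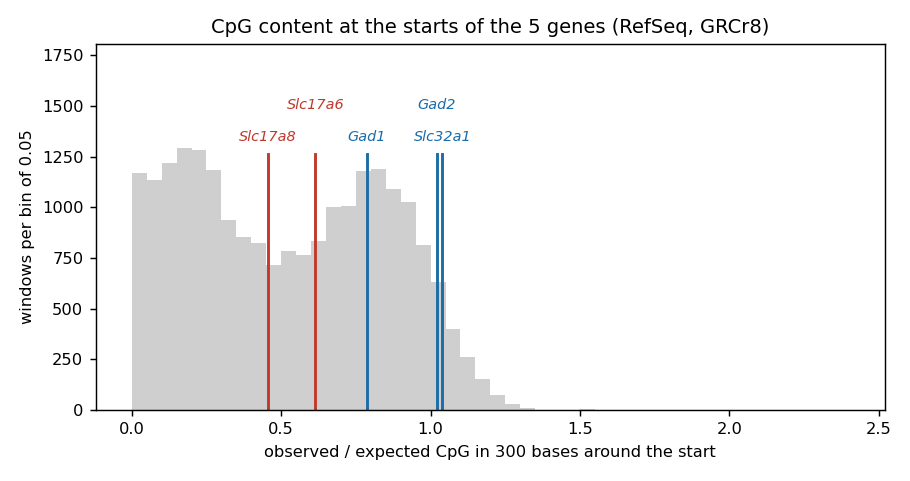
Histogram of the observed to expected CpG ratio (x axis) in RefSeq windows of 300 bases around the starts of 21851 protein-coding genes, with windows per bin on the y axis; blue lines are the GABA genes and red lines the glutamate transporters. The GABA genes stood at 0.79, 1.02 and 1.04, and *Slc17a8* and *Slc17a6* stood at 0.46 and 0.61.

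Common promoter motifs were then searched in the same windows on both strands. The TATA box TATAAA was found in *Gad1* only, 213 bases before the start of the window's transcript and 21 bases before the outer start of the gene model, and 13.0% of the protein-coding windows hold it. The GC box GGGCGG was found in *Gad1* and *Slc32a1*, against 41.8% of the windows, and CCAAT in *Gad2* and *Slc32a1*, against 38.0%. The GC box of *Gad1* lies 93 bases before the start of the window's transcript but inside the gene model, after its outer start. The cyclic AMP response element TGACGTCA, which 2.10% of the windows hold, and the E-box CACGTG, which 7.02% hold, were found in 0 of the 5 windows. In *Slc17a6* and *Slc17a8* none of these 5 letter strings was found. The strings do not overlap one another at the places found.

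Around the identity genes stand the enzymes and transporters that make, clear and recycle both transmitters. Of 20 such genes, 18 were found, and 17 of them lay above the table median. Their median level was 8.03, close to the 8.09 of the middle one of the 5 identity genes. *Slc38a5* and *Slc6a12* were not analysed here.

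The genes that make and carry glutamate and glutamine ranged widely. *Glul*, the glutamine synthetase of astrocytes, had the highest level, 10.76. *Gls2*, a liver-type glutaminase that turns glutamine into glutamate, stood at 5.53. *Glud1*, which encodes glutamate dehydrogenase, had 9.21. The aspartate aminotransferases *Got1* and *Got2* had 8.56 and 8.12, between the levels of *Gad1* (8.79) and *Slc17a6* (8.09). The glutamine transporters ran from 5.98 (*Slc38a3*) through 7.15 (*Slc38a1*) to 8.22 (*Slc38a2*).

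Glutamate is cleared from the synapse by transporters of the Slc1 family. *Slc1a3*, the astrocyte transporter GLAST, had 9.73 and *Slc1a2*, the astrocyte transporter GLT-1, had 8.08. *Slc1a1*, found on neurons, had 6.53. GABA is cleared by transporters of the Slc6 family, of which *Slc6a11* (GAT3), found on astrocytes, had 8.03. *Slc6a13* (GAT2), known from the meninges and vessels, had 4.74 and was the single found gene of the list below the median.

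GABA is broken down by GABA transaminase, encoded by *Abat*, and by succinic semialdehyde dehydrogenase, encoded by *Aldh5a1*. Their levels were 8.60 and 8.03, both between those of *Gad1* and *Slc32a1*. Monoamine oxidase B (*Maob*), which takes part in making GABA from putrescine in astrocytes, had 6.69. Both decarboxylases need pyridoxal phosphate, and *Pdxk*, which encodes pyridoxal kinase, had 5.59.

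The remaining vesicular glutamate transporter, *Slc17a7* (VGLUT1), is known chiefly from cortex and hippocampus. It had an average log2 CPM of 7.17 and exceeded 88.9% of the genes. In reads, the 3 transporters stood in the order *Slc17a6* (8.09), *Slc17a7* (7.17) and *Slc17a8* (2.64). Per kb of span, *Slc17a7* (3.60) stood above *Slc17a6* (2.76), so that the order of the first pair depends on the scale. Markers of cortex and hippocampus were also present. Besides *Slc17a7*, *Camk2a* had 8.44 and *Nrgn* 7.48, while the transcription factors *Tbr1* and *Neurod6* had 3.34 and 2.40. The part of such tissue in the level of *Slc17a7* or of the 5 identity genes was not tested.

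**Figure D3:**
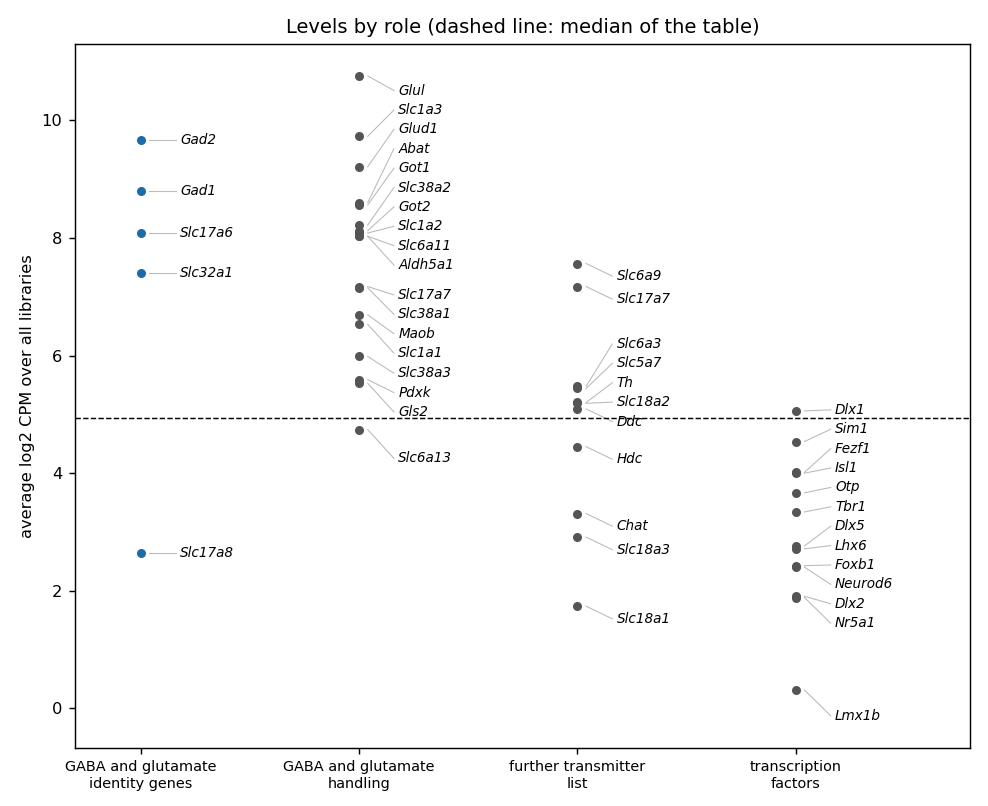
Average log2 CPM (y axis) of each found gene, as 1 point each, for the 5 identity genes, 18 genes of GABA and glutamate handling, 11 genes of the further transmitter list (*Slc17a7* is in both) and 13 transcription factors; the dashed line is the table median of 4.94 and thin lines lead from points to gene names. The handling genes sit between 4.74 and 10.76, and the transcription factors between 0.31 and 5.06.

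A further list held 16 genes of transmitter identity, those of other transmitters and also *Slc17a7*, which is a glutamate gene and is counted among the handling genes too. Of the 16 genes 11 were found, with levels from 1.73 to 7.57, and 7 lay above the table median, or 4 when every level was divided by gene span. The highest, *Slc6a9*, encodes the glycine transporter GlyT1, which astrocytes also carry. It was the single gene of this list above *Slc32a1* in reads, and the next was *Slc17a7*. Among genes of dopamine neurons, *Th* (tyrosine hydroxylase) had 5.20, *Ddc* (aromatic amino acid decarboxylase) 5.09, *Slc18a2* (the vesicular monoamine transporter VMAT2) 5.19 and *Slc6a3* (the dopamine transporter) 5.48. *Hdc*, which makes histamine, had 4.45. Among cholinergic genes, *Slc5a7* (the choline transporter) had 5.44, *Chat* (choline acetyltransferase) 3.31 and *Slc18a3* (the vesicular acetylcholine transporter) 2.91, the last being the nearest of the list to *Slc17a8*. *Slc18a1* (VMAT1) was lowest, at 1.73. *Dbh*, *Tph2* and the transporters *Slc6a2*, *Slc6a4* and *Slc6a5* were not analysed here.

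Transcription factors that set GABA or glutamate identity during development had low shares of the reads in the adult tissue. Of 15 genes 13 were found, and 1 of them lay above the table median, whereas 7 did when every level was divided by gene span. The gene above it in reads was *Dlx1*, a factor of forebrain GABA neurons, at 5.06. *Isl1* had 3.999, *Dlx5* 2.76, *Lhx6* 2.71 and *Dlx2* 1.90, all factors of GABA or mixed neuron lineages. Among factors of glutamate neurons, *Sim1* and *Otp*, known from the paraventricular region, had 4.54 and 3.66, and *Fezf1* and *Nr5a1*, known from the ventromedial hypothalamus, had 4.01 and 1.88. *Foxb1* and *Lmx1b*, known from the posterior hypothalamus and midbrain, had 2.42 and 0.31. *Dlx6* and *Gata2* were not analysed here. *Gad1* and *Gad2* stood above all 13 factors on the scale of reads, and *Slc17a8* stood below *Dlx5* and *Lhx6* and above *Foxb1*.

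The labelled region was checked against 11 lists of markers. Of 10 markers of the ARC 9 were found, from 0.08 (*Kiss1*) to 6.02 (*Cartpt*), with *Pomc* at 4.67, *Tac3* at 4.34, *Agrp* at 1.42 and *Ghrh* at 1.02. Only *Cartpt* exceeded the table median, and *Npy* was not analysed here. Markers of regions outside the ARC were found as well. All 6 of striatum ran from 4.26 (*Adora2a*) to 7.07 (*Ppp1r1b*) and all 5 of thalamus from 2.34 (*Rora*) to 7.43 (*Calb2*). All 4 of the ventromedial hypothalamus ran from 1.88 (*Nr5a1*) to 6.04 (*Adcyap1*). Above the table median were 4 of the striatal, 2 of the thalamic and 1 of the ventromedial markers. Striatal output neurons use GABA and thalamic relay neurons use *Slc17a6*, so these tissues carry the identity genes too, and their part in the levels above was not tested.

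Among cell types, the 7 neuron markers had a median level of 8.80, the 5 astrocyte markers 9.62 and the 5 oligodendrocyte markers 9.18. The neuron markers ran from 2.44 (*Eno2*) to 11.20 (*Map2*), and *Eno2* alone of them lay below the table median. The row named *Eno2* lies on chromosome 9, and whether it is the locus of the neuronal enolase was not checked. The astrocyte and oligodendrocyte markers all lay above it. The 5 microglia markers and the 4 found endothelial markers had medians of 4.46 and 6.03. Of 5 tanycyte and ependyma markers, *Crym* (5.53) and *Rax* (0.08) were found. With the *Eno2* row counted, *Gad1* lay next to the median neuron marker, *Stmn2*, with 8.79 against 8.80.

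**Figure D4:**
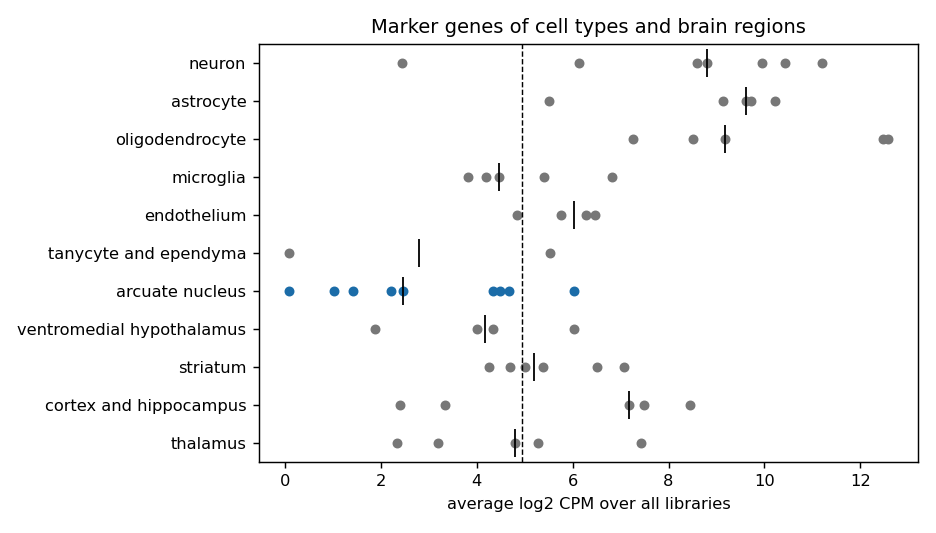
Average log2 CPM (x axis) of each found marker gene, as 1 point each, for 11 cell types and brain regions; short vertical bars are list medians, the dashed line is the table median and ARC markers are in blue. ARC markers lie between 0.08 and 6.02, with 1 above the table median, and the striatal markers lie between 4.26 and 7.07, with 4 above it. Of the thalamic and ventromedial markers, 2 and 1 lie above it.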

How the data were processed

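RNA-seq was done on the ARC of 10 dams. According to the submitters' processing notes and the methods of the paper, reads of poly-A libraries were trimmed (Trim Galore 0.5.0) and mapped by the authors to Rnor_6.0 (STAR 2.6.0c), and reads per Ensembl gene were obtained with HTSeq 0.6.1p2. The authors deposited 1 table, in which the average expression of each gene over all libraries is given as a log2 CPM. Base 2 was settled from the values, since 2 raised to the column sums to 1002152 over all rows, as CPM nearly should. A further 10 columns of single libraries match no sample label and were used in no step, so depth per library, the spread between dams and every planned test of the diets were not obtained. The table also holds the authors' own comparison of the diets (a fold change, a test statistic, a p-value and an adjusted p-value), which was not used.

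From the table, ranks and percentiles (the share of genes with a lower value) were computed with Python 3.11.15, numpy 2.4.6 and pandas 2.3.3, and plots with matplotlib 3.10.9. Intervals for percentiles were 95% Wilson intervals (scipy 1.17.1) and served only to judge the alternatives. Symbols that occur more than once (22 repeats) were kept. None of them was a gene of the lists. Promoter windows are RefSeq's on GRCr8 and were matched by symbol, with 5 of 5 genes found; no coordinates were carried between builds. The calculations were tested on simulated data. The members and lists were chosen with earlier results of these data known. The 5 genes are always named. From each list by function the rule named the 3 highest and 2 lowest found genes, and other found genes of these lists are given as well. Some genes of the lists are not reported here and are left out of their counts. Neighbours and single markers were named after their values were seen.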

Additional observations from a re-analysis of the deposited data

How the results depend on the processing

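Other ways of ranking the levels were applied to the percentiles of the 5 genes and for the number of genes of each list above the median. With protein-coding genes only, the percentile of *Slc17a8* was 10.1 in place of 11.8, and the other 8 values moved by less than their interval or kept their count. Among genes above the first quartile, the percentiles were 97.4 for *Gad1*, 99.0 for *Gad2*, 94.4 for *Slc17a6* and 88.1 for *Slc32a1*, and *Slc17a8* had no value since it lies below that quartile. Divided by gene span, they were 89.2 for *Gad1*, 90.3 for *Gad2*, 83.1 for *Slc17a6*, 5.43 for *Slc17a8* and 96.9 for *Slc32a1*. Of the further transmitter list, *Slc17a7* included, 7 genes lay above the median of the table, but 2 among genes above the first quartile and 4 by span. Of the transcription factors, 1 lay above it, but 0 among genes above the first quartile and 7 by span. In each case the alternative changes either which genes are ranked or the scale itself. The handling genes and the 5 identity genes stayed within 1.5 times their counts. No paired analysis was possible because the columns of single libraries carry no replicate number that matches a label. For the same reason the alternatives for the diet difference, among them the pseudocount, the normalization and leaving out each dam, were not run. The paper gives an approximate sequencing depth per sample, but the depth of each library was not obtained. The precision of a low level such as that of *Slc17a8* was therefore not computed.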
